A study of Mus musculus with 19 samples.

Results

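Transcripts of 47 lysosomal genes were followed in bulk RNA-seq of microglia-enriched brain homogenate. The members are a given list of cathepsins, other lysosomal hydrolases with their activator proteins, and proteins of the lysosomal membrane, and they were found by symbol among the 49671 genes of the deposited tables. All 47 were found once each. No level or change entered the rule that lists them, but the list was chosen with earlier results of these data known. The 19 mice carried the B6D2F1/J background. HEM mice overexpressed full-length human wild-type α-synuclein from the murine Thy-1 promoter, placed on the X chromosome, and WT mice were the controls. There were 8 HEM and 4 WT mice of 13 months, and 4 HEM and 3 WT mice of 3 months, with 1 library each. The Thy-1 promoter is known chiefly for expression in neurons, so the transgene need not be made by the microglia themselves, and which cells made it was not measured here. Libraries are named by group and by the replicate number in their titles. The deposited files number the libraries in another order than the titles do, so a replicate number may not be the animal number the authors used.

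Lysosomes break down material delivered by phagocytosis, endocytosis and autophagy with acid hydrolases that work at low pH. The hydrolases reach the lysosome mostly through mannose 6-phosphate receptors, and heavily glycosylated membrane proteins line the organelle and shield it from them. Microglia, the resident macrophages of the brain, are rich in lysosomes. α-Synuclein is among the proteins that lysosomes degrade, and several members are genes of inherited lysosomal storage diseases.

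Reads in genes per library ran from 63.3 to 95.8 M in HEM at 13 months, 93.2 to 124.5 M in WT at 13 months, 74.7 to 112.9 M in HEM at 3 months and 83.0 to 106.8 M in WT at 3 months. Values are given as normalised counts, the gene counts after the authors' division by a size factor of each library. The gene of the promoter, Thy1, stood at 5204.8 to 37356 normalised counts in HEM against 2361.9 to 7909.4 in WT at 13 months, with groups that overlapped, and at 18306.5 to 51369.8 in HEM against 3366.9 to 10886.4 in WT at 3 months, with groups that did not. Neither difference passed the adjusted test (adjusted p 0.127 and 1). The human transgene itself was not analysed here. On the first principal component (13.4% of the variance) HEM replicate 1 at 13 months lay farthest out, at -99.6, followed by HEM replicate 3 at 3 months, at -59.3, with all other libraries between -22.6 and 41.3. These libraries and HEM replicate 11 at 13 months, which did not stand apart on the first components but had been doubted in earlier work on these data, were left out together as an alternative. They are called the 3 doubted libraries below. The markers expected of microglia were present in each library, and 0 of 13 passed the test between HEM and WT at 13 months. Of these 13, 12 had negative log2 fold changes, with a median of -0.17. In bulk RNA, fewer cells of a type and less RNA per cell cannot be told apart.

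Lysosomal transcripts were abundant in these samples. Together the members took 1.5% to 2.35% of the reads in genes in HEM at 13 months (median 1.81%) and 1.90% to 2.24% in WT at 13 months (median 2.15%). At 3 months they took 1.98% to 2.47% in HEM (median 2.25%) and 2.05% to 2.17% in WT (median 2.12%), so the 4 groups overlapped. Divided by the exon length of each gene, single members ranged from 263.3 to 148876 normalised counts per kb. Ctss, a cathepsin typical of macrophages, was the highest at 148876 ± 33676 normalised counts per kb of exon (mean ± SD, n = 19). Psap, the precursor that is cut into the saposins, followed at 121130 ± 19505 per kb, within the spread of Ctss. The aspartic protease Ctsd came next at 85854 per kb, ahead of the asparagine-specific protease Lgmn at 48571 per kb and Ctsz at 35487 per kb.

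Each other role had its own leading gene. Lamp1, a main glycoprotein of the limiting membrane, led the membrane proteins at 18641.5 normalised counts per kb, and Grn, which encodes the secreted and lysosomal protein progranulin, stood beside it at 17732.8 per kb. Man2b1, an α-mannosidase, led the glycoprotein and glycogen enzymes at 7226.6 per kb. Ids, which removes sulfate from dermatan and heparan sulfate, led the glycosaminoglycan enzymes at 3281 per kb. The lowest members were Galc, which splits galactosylceramide, at 263.3 per kb, the α-galactosidase Gla at 416.8 per kb and Ctsk, the collagen-cleaving cathepsin, at 539.6 per kb. Ctsk also had the lowest mean without regard to length, 815.9 normalised counts.

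**Figure D1:**
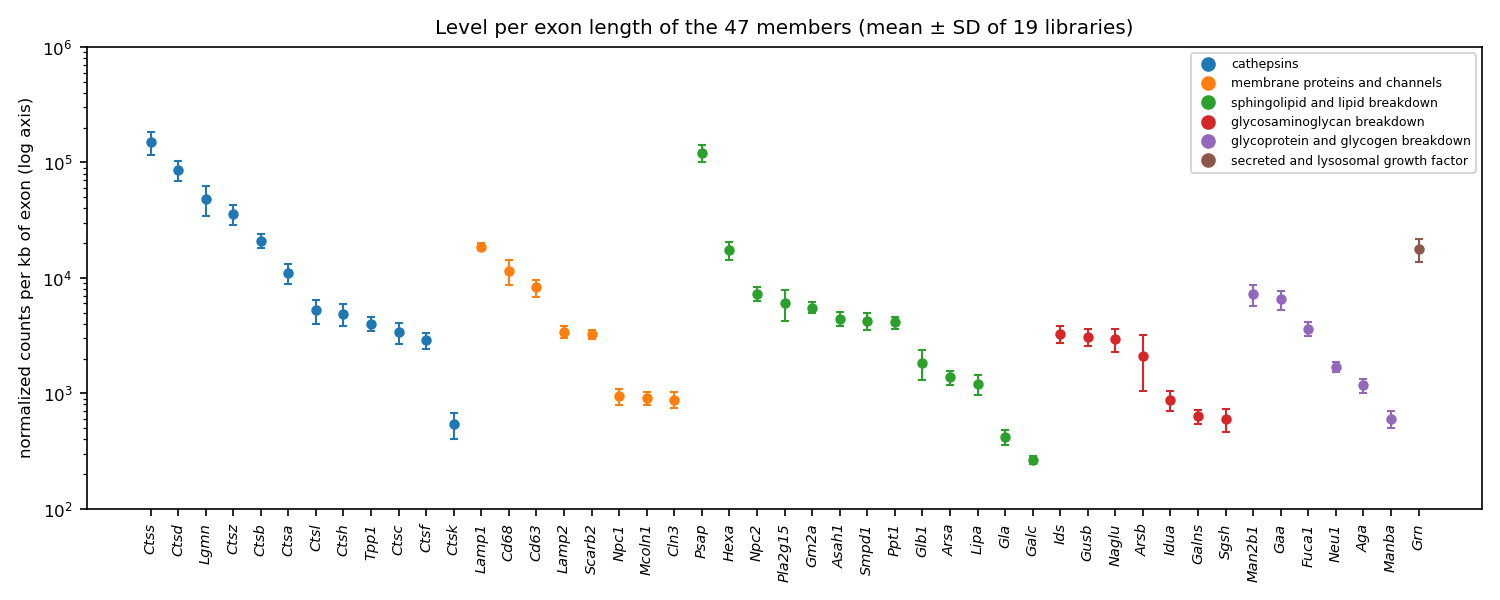
Level of each of the 47 members in normalised counts per kb of exon (vertical log axis), as the mean of 19 libraries with bars of 1 SD, coloured by role. Ctss, Psap and Ctsd stand highest, with means of 85854 per kb or more, while Galc, Gla and Ctsk are the lowest.

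A promoter motif was counted for the members as a description. The list was not chosen by the motif, but the motif is already known from lysosomal genes. A higher share among the members is therefore not an independent result. Transcription factors of the TFEB family are known to bind E-box sequences near the starts of many lysosomal genes. RefSeq promoters (GRCm38.p6, 250 bases before to 50 after each start) were at hand for 41 of the 47 members and were searched on both strands for CACGTG, which reads the same on both, and for TCACGTG, which contains it. CACGTG was present for 14 of the 41 members (34.1%) and for 8.09% of all 27025 genes with such promoters. TCACGTG was present for 12 of the 41 (29.3%) and for 4.29% of genes, and the difference between these shares was not tested. Most members thus held neither motif in the window searched. By single promoters, 7.15% of 32851 held CACGTG and 3.77% held TCACGTG. The 12 members with the longer motif were Ctsa, Ctsd, Lgmn, Lamp1, Mcoln1, Cln3, Gla, Glb1, Arsa, Naglu, Sgsh and Gaa. Promoters of Asah1, Ctsb, Ctsh, Galns, Aga and Npc1 were not analysed here. A match describes letters in a window and is not a measured binding site.

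Windows of 30 bases from 6 promoters are shown because they belong to members that the comparisons below turn on, Glb1, Gaa and Gla, or to abundant or membrane members that did not pass the test at 13 months, Lamp1, Mcoln1 and Ctsd. They lie at chr9:114401018-114401047 (+) for Glb1, chr11:119267811-119267840 (+) for Gaa, chrX:134601215-134601244 (-) for Gla, chr8:13159088-13159117 (+) for Lamp1, chr8:3500436-3500465 (+) for Mcoln1 and chr7:142387908-142387937 (-) for Ctsd. Counted from the start in the RefSeq promoter table, the motif shown began 49 bases before the start of Glb1, 141 before that of Gaa, 228 before that of Gla, 62 before that of Lamp1, 72 before that of Mcoln1 and 99 before that of Ctsd. The gene positions given elsewhere are those of GENCODE and can start at another base: the Ctsd window lies inside the gene as GENCODE places it, and the Mcoln1 window runs into it. Capitals mark TCACGTG, and each window is written 5′ to 3′ on the strand of its gene.
Glb1: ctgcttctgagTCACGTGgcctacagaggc
Gaa: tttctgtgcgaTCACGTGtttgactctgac
Gla: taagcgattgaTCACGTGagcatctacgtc
Lamp1: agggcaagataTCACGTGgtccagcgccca
Mcoln1: ggtcgcgcttgTCACGTGttcagttcaggc
Ctsd: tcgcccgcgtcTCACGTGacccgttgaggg

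The first comparison asked how the lysosomal genes of HEM mice differed from those of WT mice at 13 months. Of the 47 members, 12 were lower in HEM at an adjusted p under 0.05 and 0 were higher. Over all 23973 genes tested, 12.2% were called, 7.30% lower and 4.87% higher. Among the 11269 genes at or above the level of the lowest member, 13.7% were called lower and 5.50% higher. The members' share called lower stood above the 7.30% and the 13.7%, a difference that was not tested. Most members stood well above that lowest level, so the 11269 genes are not matched to them in level. The log2 fold change was negative for 39 of 47 members, with a median of -0.23, beside a median of 0.03 over all genes tested and -0.04 over those at or above the lowest member. Changes were modest: among the 12 called members the difference ran from -0.61 (Glb1) to -0.29 (Gm2a) on the log2(value + 1) scale, and Cln3 had the highest value of all members at 0.22. In 6 members each HEM library lay below each WT library, and in 0 members above, while 3.98% and 2.69% of all genes tested were apart in these directions.

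Enzymes and helpers of sphingolipid and cholesterol handling were lower in HEM for 5 of 13 members, and all 13 had negative values. Over all genes tested 7.30% were called lower, and 13.7% of those at or above the lowest member. Smpd1, the acid sphingomyelinase that turns sphingomyelin into ceramide (chromosome 7, 105554360 to 105558389, mm10), ranged from 9848.3 to 14119.7 normalised counts in the 8 HEM mice (median 11926). The 4 WT mice had 14785.6, 17111.3, 17693.8 and 16427.4. Each HEM library lay below each WT library, and the mean fell by 27.8% (log2 fold change -0.47 ± 0.09, SE, adjusted p = 0.0040). Psap (chromosome 10, 60277627 to 60302597) ranged from 249096 to 338572.5 normalised counts in HEM (median 278588.8). In WT it stood at 345488.6, 393365.9, 344630.6 and 460174.5, again without overlap, and the log2 fold change was -0.43 ± 0.11 (adjusted p = 0.0149). The saposins cut from its product help the hydrolases reach their lipid substrates.

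Gm2a encodes the activator that presents the ganglioside GM2 to hexosaminidase (chromosome 11, 55098115 to 55113029). It ranged from 18400 to 23433.5 normalised counts in HEM (median 21632.8), and stood at 26184.3, 25934.3, 22757.8 and 29445.4 in WT. WT replicate 8 lay within the HEM range, and the log2 fold change was -0.29 ± 0.08 (adjusted p = 0.0202). Npc2, the soluble carrier that passes cholesterol on to Npc1 (chromosome 12, 84754562 to 84773152), ranged from 29468.5 to 44804.8 in HEM with a median of 36001.1. WT replicate 8, at 42060.5, again lay within the HEM range, while the other WT libraries stood at 47073.1 to 50199.1 (log2 fold change -0.37 ± 0.10, adjusted p = 0.0242).

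Glb1, the β-galactosidase of GM1 ganglioside breakdown (chromosome 9, 114401076 to 114474898), had the greatest fall of all members and also a wide spread. HEM libraries ranged from 3365.7 to 6653.8 normalised counts (median 4070.2), and WT libraries stood at 8225.3, 4444.2, 5678.3 and 8139.4. HEM replicate 11 was the high one among HEM mice, and the next HEM library, at 4433.4, lay just under the lowest WT library. The log2 fold change was -0.61 ± 0.18 (adjusted p = 0.0312), and -0.74 without the 3 doubted libraries (adjusted p = 0.0105). The 8 lipid genes that were not called had log2 values from -0.30 to -0.07. They were Gla (-0.30 ± 0.10, adjusted p = 0.0571), Hexa, the hexosaminidase α subunit (-0.30), the acid lipase Lipa (-0.22), the thioesterase Ppt1 (-0.16), the phospholipase Pla2g15 (-0.16), the sulfatase Arsa (-0.15), Galc (-0.12) and the acid ceramidase Asah1 (-0.07).

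Of the 6 enzymes of glycoprotein and glycogen breakdown, 3 were lower in HEM at 13 months. Over all genes tested 7.30% were lower, and 13.7% of those at or above the lowest member. Aga, which splits the bond between sugar and asparagine in glycoproteins (chromosome 8, 53511727 to 53523421), ranged from 2043.4 to 2481.4 normalised counts in HEM (median 2405.8). WT libraries stood at 2981.6, 3210.4, 3010.8 and 2886.7, so the groups were apart. The log2 fold change was -0.38 ± 0.08 (adjusted p = 0.00489). Gaa, the acid α-glucosidase that degrades glycogen (chromosome 11, 119267887 to 119285454), ranged from 21649.8 to 29779.1 in HEM (median 26116.8). In WT it stood at 28360.3, 35317.3, 36069.7 and 38723.2, and only HEM replicate 11 reached above WT replicate 6 (log2 fold change -0.43 ± 0.11, adjusted p = 0.0125). Fuca1, an α-fucosidase, had 10547.3 ± 1273.2 normalised counts in HEM (SD, n = 8) and 13250.7 ± 993.3 in WT (n = 4), with a log2 fold change of -0.34 ± 0.10 (adjusted p = 0.0294). The mannosidases Man2b1 and Manba had values of -0.22 and -0.07, and the sialidase Neu1 had 0.11. None of these 3 was called.

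Among the membrane proteins, 2 of 8 were lower in HEM at 13 months. The shares called lower were 7.30% over all genes tested and 13.7% at or above the lowest member. Cd63, a tetraspanin of lysosomes and late endosomes (chromosome 10, 128900989 to 128912822), had a narrow range in HEM, from 26190.8 to 29660.3 normalised counts (median 28385.7). The WT mice had 38384.4, 40271.1, 42007.1 and 32552.5, all above the HEM mice. The log2 fold change was -0.43 ± 0.10 (adjusted p = 0.00772). Lamp2, a structural membrane glycoprotein that also serves as a receptor in chaperone-mediated autophagy (chromosome X, 38401357 to 38456454), ranged from 26746 to 34288.8 in HEM with a median of 29815.1. In WT it stood at 37772.7, 37293, 37150.1 and 36370.4, a narrow band above each HEM library, and the log2 fold change of -0.31 ± 0.10 passed the test narrowly (adjusted p = 0.0476 with limma, 0.061 with edgeR). Its partner Lamp1 had -0.16, the macrophage protein Cd68 -0.26, the cholesterol exporter Npc1 -0.19, the enzyme receptor Scarb2 -0.10, the cation channel Mcoln1 0.01 and the Batten disease protein Cln3 0.22. None of these 6 was called.

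The glycosaminoglycan enzymes had 1 call in 7, near the 13.7% called lower among genes at or above the lowest member. It is not a result about this role. Ids (chromosome X, 70343069 to 70365084) ranged from 13397.7 to 19330.7 normalised counts in HEM (median 14916.5), and stood at 20439.5, 22149, 20829.6 and 20552.7 in WT. The groups were apart, and the log2 fold change was -0.46 ± 0.09 (adjusted p = 0.00411). The other members of this role had log2 values of -0.36 for Naglu and -0.16 for Sgsh, which act on heparan sulfate, -0.10 for the glucuronidase Gusb, 0.00 for the sulfatase Arsb, 0.07 for the sulfatase Galns and 0.07 for the iduronidase Idua. Ids, Lamp2 and Gla lie on the X chromosome, as the transgene does. The place of insertion is not given in the sources used here, and its part in these values was not tested.

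The 12 proteases had 1 call. Over all genes tested 7.30% were called lower, and 13.7% of those at or above the lowest member. The 1 call lies near these shares and is not a result about this role. Tpp1, which removes tripeptides from protein ends (chromosome 7, 105744811 to 105752235), ranged from 14360.8 to 20970.5 normalised counts in HEM (median 18589), and stood at 20890.2, 24453.3, 23147.8 and 24562.7 in WT. Only HEM replicate 11 reached into the WT range, and the log2 fold change was -0.36 ± 0.10 (adjusted p = 0.0214). The cysteine proteases Ctsl (-0.41 ± 0.15, adjusted p = 0.0884) and Ctsb (-0.30 ± 0.11, adjusted p = 0.0928) did not pass. Of the others, Ctsd had -0.37, Ctsa -0.28, Ctss -0.27, Ctsf -0.24, Ctsz -0.23, Lgmn -0.17 and Ctsk -0.15. The aminopeptidase Ctsh had 0.04, and Ctsc, which activates the serine proteases of leukocyte granules, had 0.08. Grn had -0.28 ± 0.17 (adjusted p = 0.349). HEM libraries scattered widely in several of these genes: the coefficient of variation in HEM at 13 months was 35.7% for Lgmn and 27.4% for Ctss, against 4.2% for Cd63.

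**Figure D2:**
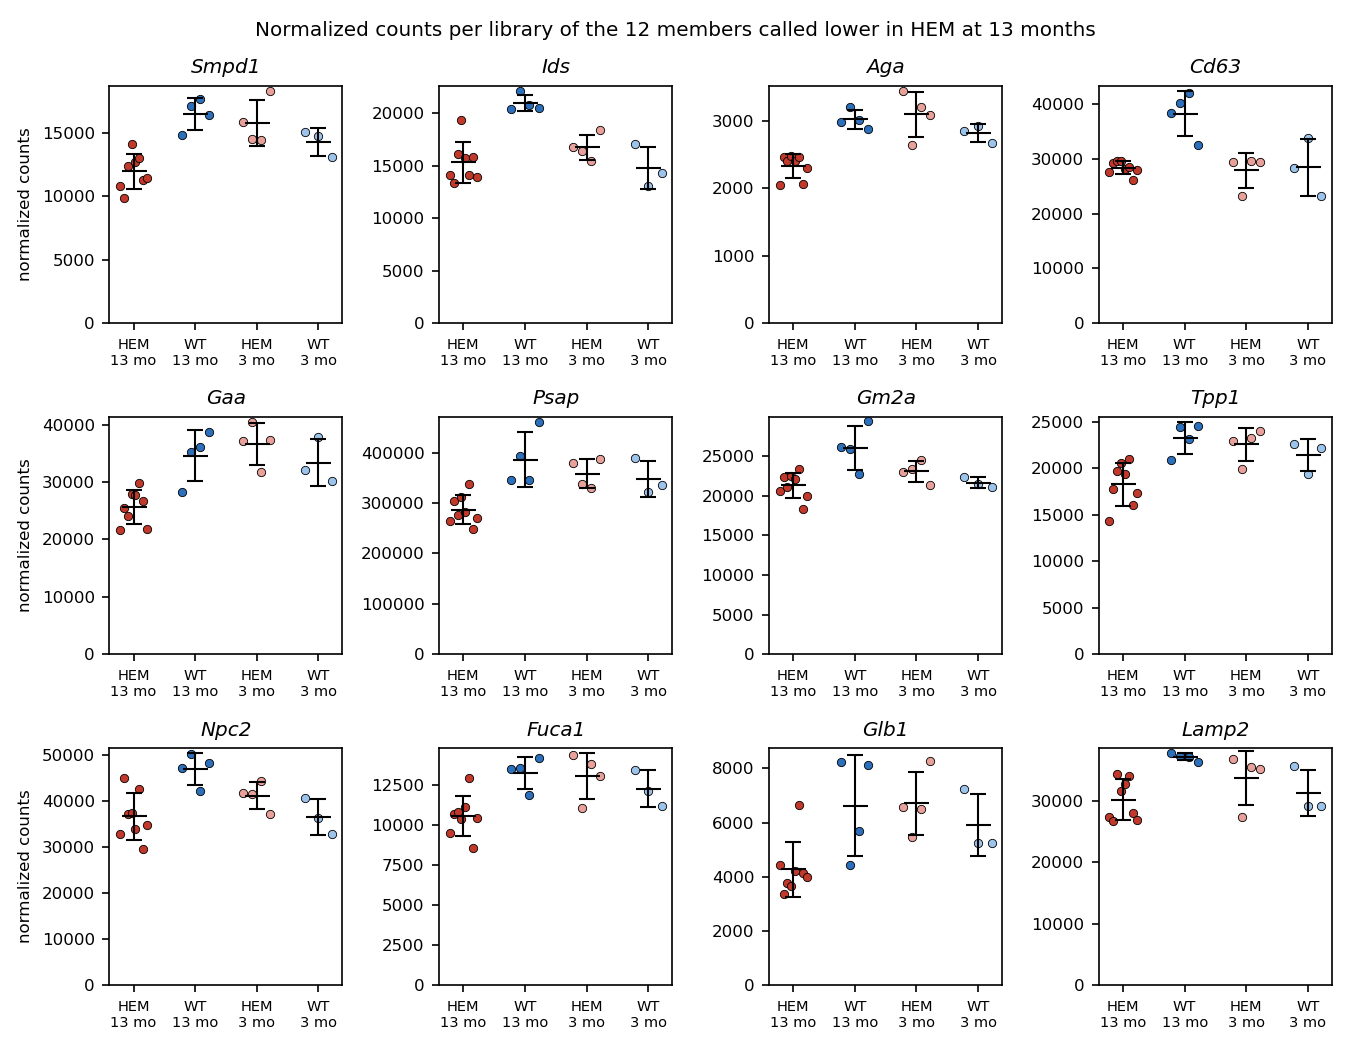
Normalised counts (axes from 0) of the 12 members called lower in HEM at 13 months, 1 point per library, with the group mean and bars of 1 SD, for 8, 4, 4 and 3 mice from left to right. In Smpd1, Ids, Aga, Cd63, Psap and Lamp2 each HEM point at 13 months lies below each WT point of that age.

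Calls for Smpd1, Ids, Aga and Cd63 held when any single library was left out. The count of 12 rested in part on the 4 WT mice of 13 months: it was 4 without WT replicate 9, 6 without replicate 7, and 9 without replicate 6 or without replicate 8, and from 11 to 14 without any other library. Without the 3 doubted libraries, 12 members were called, the same 12.

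Markers of other cells, and genes known to respond to tissue dissociation, differed between the same groups. Whether the handling of the samples differed was not tested. Of the neutrophil markers 11 of 12 were higher in HEM at 13 months, with a summed level of 68742 to 601915 normalised counts per library against 41411 to 114044 in WT. All 8 choroid plexus markers were lower, with sums of 1380161 to 2700661 against 3443171 to 4143124, and 9 of 11 genes induced by tissue dissociation were higher, with sums of 406197 to 1195585 against 73605 to 345375. The sums of the microglia markers overlapped, from 454882 to 1284556 in HEM and from 666156 to 1127259 in WT. Their log2 fold changes were negative in 12 of 13, with a median of -0.17, beside -0.23 for the members. No gene of these 4 lists was at 0 in any library. Also higher in HEM were 4 of 4 eosinophil, 4 of 6 monocyte and 4 of 8 T and NK cell markers (medians 4.26, 1.4 and 1.31). So were 2 of 7 erythroid and 1 of 6 B cell markers (medians 1.04 and 0.45), and 0 markers of these blood cell lists were called lower. Among further lists, 2 of 7 bone and osteoblast, 1 of 7 osteoclast and 1 of 7 pericyte and smooth muscle genes were higher. Of the astrocyte genes 1 of 7 was lower. The part of these further lists was not tested. Over all genes tested 4.87% were called higher and 7.30% lower. With the mean level of the neutrophil and erythroid markers as a covariate, the median of the members was -0.05 and 0 were called, with 0 calls over all genes as well. With a covariate for choroid plexus markers the median was -0.22, and for the dissociation genes -0.37, again with 0 calls among members and over all genes. With the microglia markers as a covariate, 14 members were called lower and 1 higher, with a median of -0.15. Since the neutrophil, erythroid, choroid plexus and dissociation lists move with genotype at this age, their part in the members' values cannot be told apart from it.

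**Figure D3:**
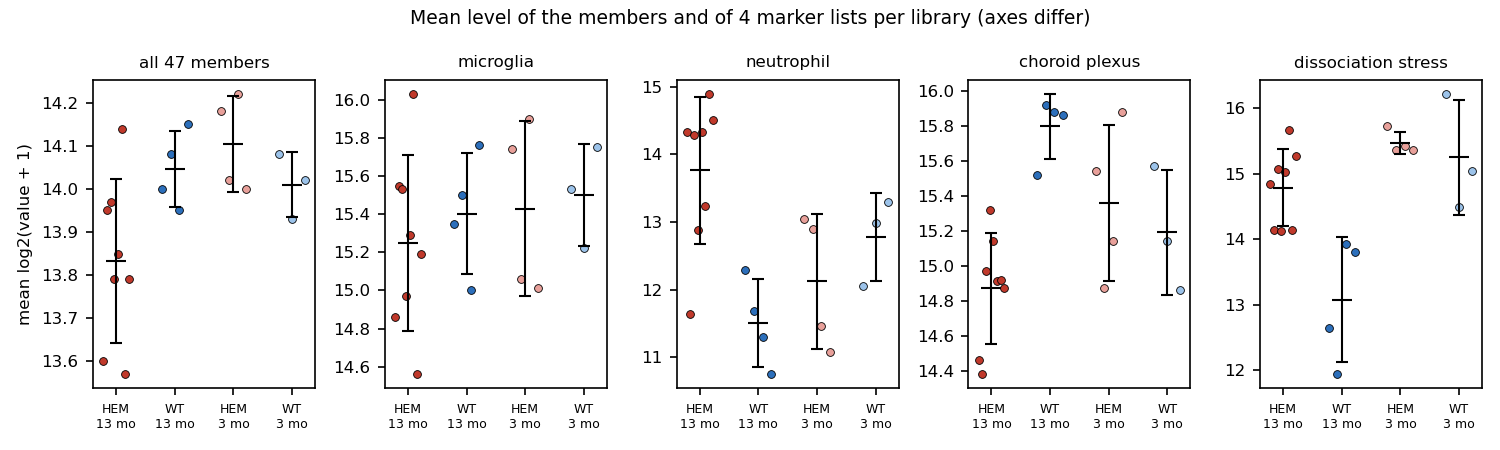
Mean log2(value + 1) per library (vertical axes differ and do not start at 0) of the 47 members and of markers for microglia, neutrophils, choroid plexus and dissociation stress, with the group mean and bars of 1 SD. For the members, HEM libraries at 13 months run from 13.57 to 14.14 and WT libraries from 13.95 to 14.15, while the choroid plexus and dissociation panels show HEM and WT apart at 13 months.

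The libraries also differed among themselves within HEM at 13 months. HEM replicate 11 had the highest mean level of the members, 14.14 on the log2(value + 1) scale, and the highest microglia marker level, 16.03. HEM replicate 12 had the lowest of both, 13.57 and 14.56, and HEM replicate 1 stood next with 13.60 and 14.86. Among the cathepsins, Ctsb stood at 142685.5 normalised counts in replicate 11 against 92299.6 in replicate 12, and Ctss at 254809.5 against 128567.1. Arsb behaved differently from the other members, with 5235.5 normalised counts in HEM replicate 1 and 20873 in replicate 4 of the same group, and 7787.2 to 27100.6 among WT mice of that age. At 13 months its coefficient of variation was 43.0% for HEM and 63.1% for WT. Of its exon bases 39.9% are also annotated to genes on the opposite strand, and the strand setting of the counting is not given in the sources used here.

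**Figure D4:**
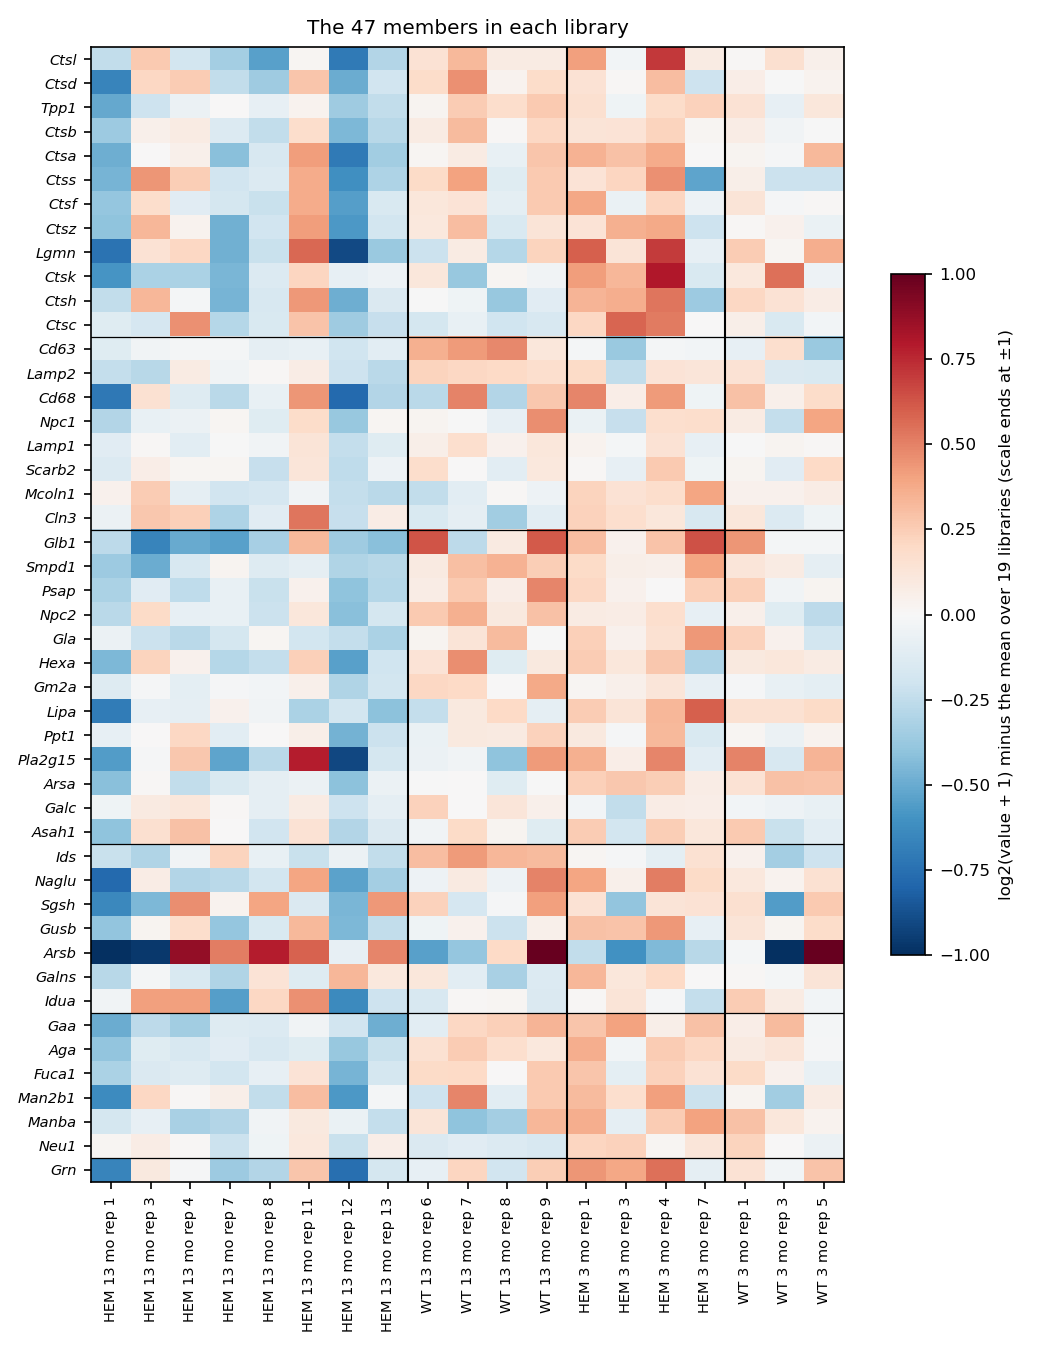
Level of each member (rows, grouped by role) in each library (columns, grouped by genotype and age), as log2(value + 1) minus the mean of that gene over 19 libraries, with a colour scale that ends at ±1. HEM replicates 1 and 12 of 13 months are low across most rows, replicate 11 is high in many cathepsins, and the Arsb row changes from library to library within groups.

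At 3 months the same question, HEM against WT, was put to young mice. None of 47 was called, and 0% of the 23973 genes tested, with limma. The count at an unadjusted p under 0.05 was 1 member and 924 genes (3.85%), and DESeq2 called 6 genes and edgeR 0, with 0 members by either. Values were mostly positive, in 40 of 47 members, with a median of 0.11 beside 0.01 over all genes tested. The largest was Ctsc, at 22159.5, 28710.3, 27496.3 and 19210.2 normalised counts in HEM against 20028.7, 17302.6 and 18826.8 in WT (log2 fold change 0.37 ± 0.17, adjusted p = 1). HEM replicate 7 lay below the highest WT library. Mcoln1, the channel that releases calcium from lysosomes, stood at 7945.1, 7536, 7683 and 8955.3 in HEM and at 7009.9, 7023.2 and 7177.3 in WT. These groups did not overlap, as was true of 3.08% of all genes in that direction and 2.78% in the other, and the log2 fold change was 0.18 ± 0.11 (adjusted p = 1).

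The lowest values at 3 months were those of Arsb (-0.37 ± 0.52) and Idua (-0.13 ± 0.22). The value of Arsb rested on 1 mouse: WT replicate 5 had 23323.6 normalised counts against 5378.4 and 11203.4 in the other WT mice, and without it the log2 fold change was 0.15. By role, the median was 0.13 for the 12 proteases, 0.03 for the 8 membrane proteins, 0.09 for the 13 lipid genes, 0.12 for the 7 glycosaminoglycan enzymes and 0.11 for the 6 glycoprotein and glycogen enzymes, and Grn had 0.19. With 4 mice against 3, a p that misses the threshold does not show that the groups were alike. Marker lists also leaned at this age, with 0 called. Neuron genes had a median of 1.22, neutrophil genes -0.65, eosinophil genes -1.94 and microglia genes -0.07. The median of the members was 0.07 with the neutrophil and erythroid covariate and 0.15 with the neural one. The cause of the members' positive values was not tested.

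In HEM mice, 6 members were lower at 13 than at 3 months and 0 were higher. Over all genes tested 1.62% were called, 0.684% lower and 0.934% higher, and among genes at or above the lowest member 1.28% were lower and 1.06% higher. The median of the members was -0.30, with 43 of 47 negative, beside 0.00 over all genes tested. Lipa, the acid lipase that frees cholesterol and fatty acids from esters (chromosome 19, 34492318 to 34527474), had the greatest fall among the called members. It ranged from 4917.4 to 8260.6 normalised counts in the older HEM mice (median 7274.4) and stood at 9546.9, 8760, 10072.6 and 12093.7 in the younger ones. The groups were apart, with a log2 fold change of -0.55 ± 0.12 (adjusted p = 0.0303). Gaa fell from 36679.6 ± 3611.2 normalised counts (SD, n = 4) to 25655.3 ± 2964.6 (n = 8), a log2 fold change of -0.52 ± 0.11 (adjusted p = 0.0208). Aga fell from 3095.4 ± 340.5 to 2328.9 ± 179.5 (-0.41 ± 0.08, adjusted p = 0.0175).

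Arsa, which removes sulfate from the myelin lipid sulfatide (chromosome 15, 89472476 to 89477425), ranged from 3729.3 to 5042.4 normalised counts in HEM at 13 months (median 4599.9). At 3 months it stood at 5890, 6035.6, 5915.2 and 5246.2, above each older mouse (log2 fold change -0.38 ± 0.08, adjusted p = 0.0252). Smpd1 had 15758.4 ± 1800.8 at 3 months and 11951.1 ± 1370.9 at 13 months (-0.40 ± 0.09, adjusted p = 0.0378). Gla, the enzyme missing in Fabry disease (chromosome X, 134588149 to 134601125), had 1573.8 ± 181.0 and 1191.5 ± 92.8 (-0.40 ± 0.10, adjusted p = 0.0496). The call of Gla was lost in 14 of the 19 fits with 1 library left out and in 10 of the 17 other alternatives. Each of the 6 called members had groups that did not overlap, as had 1.36% of all genes in that direction, and 1.44% were apart in the other direction. Of the remaining members, Glb1 had the value farthest from 0, -0.66 ± 0.18 (adjusted p = 0.0651), followed by Ctsk, Grn and Lgmn at -0.57, -0.56 and -0.56. The highest were Arsb at 0.53, Idua and Cd63 at 0.03 and Galc at 0.02.

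The count of 6 depended on single mice of the younger group: it was 0 without HEM replicate 1 of 3 months, 1 without replicate 4, 2 without replicate 7 and 3 without replicate 3, and it was also 3 without HEM replicate 13 of 13 months. It was 4 without the 3 doubted libraries, 2 of them among the 6. With DESeq2 the count was 14 and with voom and sample weights 19, all lower. Neutrophil markers summed to 50789 to 160779 normalised counts in HEM at 3 months against 68742 to 601915 at 13 months, and with these and the erythroid markers as a covariate the median of the members was -0.19 and 0 were called. With a covariate for the choroid plexus markers or for the dissociation genes, 0 members were called and the medians were -0.28 and -0.25. None of the 12 neutrophil markers was itself called with age in HEM (median log2 fold change 1.59). Of other marker lists, 3 of 7 astrocyte genes and 2 of 4 eosinophil genes were higher at 13 months, with sums of 211687 to 438104 against 89738 to 173783 normalised counts for astrocytes and 2411 to 38139 against 418 to 1695 for eosinophils. Endothelial genes were lower in 2 of 7, with sums of 63936 to 239589 against 189753 to 393628. Choroid plexus genes were lower in 1 of 8 (median -0.54), and 1 of 7 erythroid and 1 of 6 B cell markers were higher. Of 7 bone and osteoblast genes 1 was higher and 1 lower. Over all genes tested 0.934% were higher and 0.684% lower. The 9 neuron genes had a median of -0.99 with 0 called. With a covariate for neural markers 8 members were called lower, the 6 among them. The part of the eosinophil, endothelial, B cell and bone lists was not tested.

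In WT mice 1 member was higher at 13 than at 3 months and 0 were lower. Over all genes tested 0.709% were called, 0.463% higher and 0.246% lower, and among genes at or above the lowest member 0.772% were higher and 0.355% lower. Ids stood at 20439.5, 22149, 20829.6 and 20552.7 normalised counts in the older WT mice and at 17046.5, 13083.2 and 14316.4 in the younger ones. The older group lay wholly above, with a log2 fold change of 0.51 ± 0.12 and an adjusted p of 0.0483, a call that did not hold for 14 of the 19 libraries when that library was dropped. Cd63 had the next value, at 0.44 ± 0.12 (adjusted p = 0.081), with 38303.8 ± 4109.7 normalised counts (SD, n = 4) against 28466.7 ± 5272.1 (n = 3). Lamp1, Lamp2, Galc, Gm2a and Npc2 also had older groups wholly above younger ones, without a call, as had 8.83% of all genes together with the called ones. Ctsh, Mcoln1, Arsa and Neu1 had older groups wholly below, as had 6.46% of all genes. The median of the members was 0.06, beside -0.01 over all genes. Markers moved with age in WT as well. Of the 11 dissociation genes 5 were lower in the older mice (median -2.03), with sums of 73605 to 345375 against 543558 to 1062239 normalised counts, and 3 of 7 pericyte and smooth muscle genes were lower (median -0.62). The endothelial genes had a median of -1.10 and the choroid plexus genes one of 0.59, both with 0 called. With a covariate for the dissociation or the choroid plexus genes Ids was not called, and the part of the pericyte and endothelial lists was not tested.

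The change with age was then compared between genotypes, as the difference of the genotype effects at 13 and at 3 months. None of 47 members and 0% of the 23973 genes tested passed the adjusted test with limma, while 16 members and 3551 genes (14.8%) had an unadjusted p under 0.05. DESeq2 called 7 members and 938 genes, voom with sample weights 6 members and 794 genes, and edgeR 0 and 0. With limma, leaving out 1 library gave 2 members and 315 genes without HEM replicate 7 of 13 months, 1 member and 287 genes without WT replicate 6 of 13 months, and 0 members without any other library. The values were negative for 43 of 47 members, with a median of -0.32. Ids had the smallest p, with -0.65 ± 0.15 (adjusted p = 0.0843), followed by Smpd1 with -0.61 ± 0.15 (adjusted p = 0.0956). The highest were Arsb at 0.38 ± 0.67 and Idua at 0.20 ± 0.29.

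The comparisons share groups of mice, so they are set side by side and not counted as separate evidence. For Ids the log2 fold changes were -0.46 for HEM against WT at 13 months, 0.18 at 3 months, 0.51 with age in WT and -0.14 with age in HEM. For Cd63 they were -0.43, -0.02, 0.44 and 0.03, so that the WT mice of 13 months had the highest mean of the 4 groups. For Gaa they were -0.43, 0.14, 0.05 and -0.52, and for Aga -0.38, 0.13, 0.10 and -0.41, so that here the HEM mice of 13 months had the lowest mean. Smpd1 had -0.47, 0.14, 0.21 and -0.40, and Psap -0.43, 0.04, 0.14 and -0.33. Arsa had -0.15, -0.03, -0.27 and -0.38, with both groups of older mice low.

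**Figure D5:**
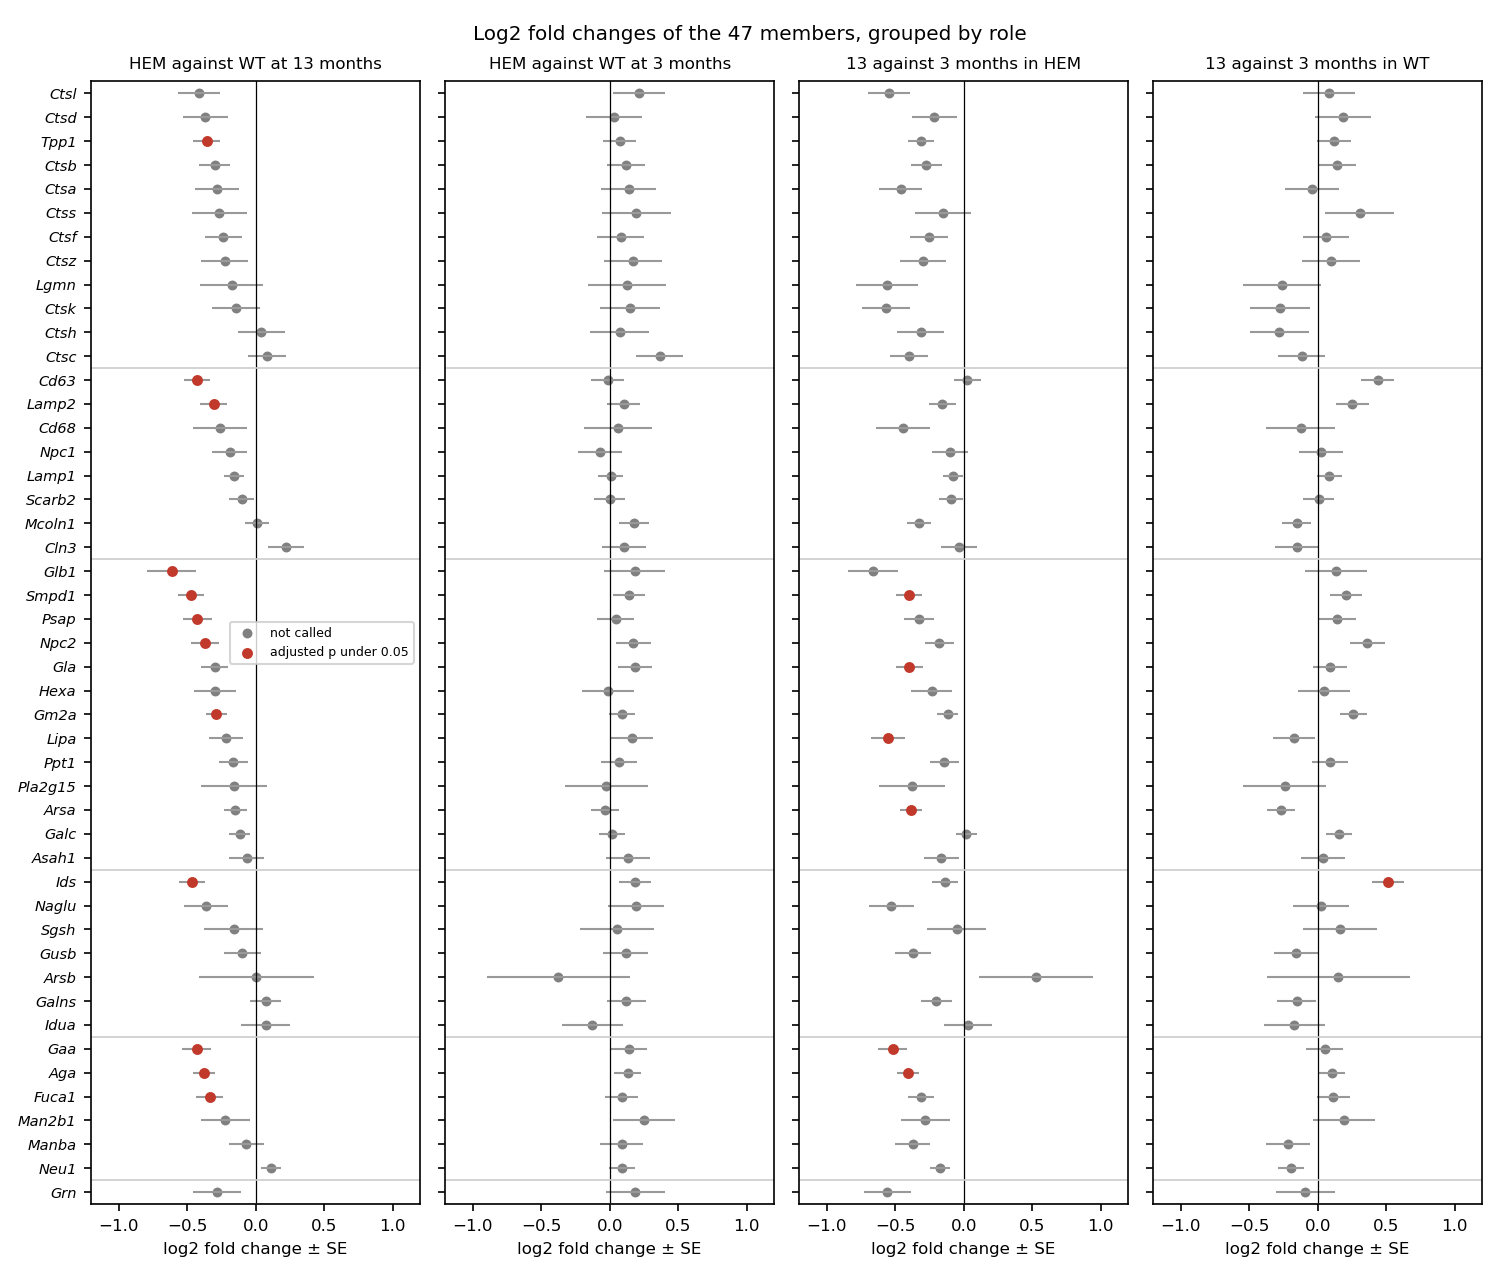
Log2 fold change with bars of 1 SE for each of the 47 members (rows, grouped by role) in HEM against WT at 13 months and at 3 months and in 13 against 3 months in HEM and in WT. Red points passed an adjusted p under 0.05: 12 at 13 months, 0 at 3 months, 6 with age in HEM and 1 with age in WT.

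Other lysosome genes, in lists that hold no member, were read beside these. The vacuolar proton pump acidifies the lysosome, and 10 of 20 listed subunits and accessory proteins were lower in HEM at 13 months and 0 were higher, with a median of -0.24. Over all genes tested 7.30% were lower, and 13.7% of those at or above the level of the lowest member. Atp6v1g1 (-0.45 ± 0.08, adjusted p = 0.00275), Atp6v1f (-0.50 ± 0.09, adjusted p = 0.00285) and the catalytic subunit Atp6v1a (-0.64 ± 0.13, adjusted p = 0.00383) had the smallest p. Atp6v1g1 had 10137.2 ± 373.3 normalised counts in HEM (SD, n = 8) and 13977.9 ± 1975.3 in WT (n = 4) at 13 months. It also rose with age in WT (0.50 ± 0.10, adjusted p = 0.0341), and Atp6ap1 fell with age in HEM (-0.31 ± 0.07, adjusted p = 0.0247).

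Of 31 other hydrolases 5 were lower and 1 higher in HEM at 13 months. Lower were Ggh (-0.55), which trims folate polyglutamates, the sulfatase Arsg (-0.92), Dpp7, Pld3 and Man2b2. The single higher gene was Ctsg (3.28 ± 0.68, adjusted p = 0.00482), a cathepsin of neutrophil granules, at 2372.1 ± 1788.2 normalised counts in HEM and 225.5 ± 157.6 in WT. Of 22 regulators of lysosome biogenesis 6 were lower, among them Rraga (-0.52), Rragd (-0.77) and Lamtor2 (-0.44), which anchor the growth regulator mTORC1 to the lysosome, and Tfec, a TFEB relative of macrophages, was higher (1.64 ± 0.42, adjusted p = 0.0162). Of 25 sorting genes 4 were lower, the adaptor Gga2 (-0.62), Vps29, Vps41 and the mannose 6-phosphate receptor Igf2r, and 0 were higher. The shares of the other hydrolases and of the sorting genes called lower lie near the 13.7% of all genes at or above the lowest member, so they are not results about these lists.

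Of 38 other membrane proteins and transporters 2 were lower, Tspan3 (-0.44) and Laptm4b (-0.50), with a median of -0.01. Over all genes tested 7.30% were lower and 4.87% higher, and the 2 membrane calls are not a result about that list. Of 10 cathepsin inhibitors Cstb was lower (-0.45 ± 0.09, adjusted p = 0.00364), and Stfa1 (1.96) and Serpinb1a (1.19) were higher, both known from neutrophils. At 3 months none of the 146 genes of these 6 lists was called. With age in HEM 4 of the 31 other hydrolases fell, Hyal2 (-0.56), Rnaset2a (-0.92), Pld3 (-0.48) and Ggh (-0.39). Tm9sf1 (-0.33) fell as 1 of the 38 membrane proteins and transporters. Over all genes tested 0.684% were lower with age in HEM, and 1.28% of those at or above the lowest member.

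The promoter motif was set beside these calls as a description. Among the 12 members lower in HEM at 13 months, 11 had a promoter to search, and 2 of these, Glb1 and Gaa, held TCACGTG. Among the 35 members not called, 10 of 30 held it. Among the 6 that fell with age in HEM, 3 of 5 held it, namely Gla, Arsa and Gaa. The window shown above for Glb1 thus belongs to the member with the greatest fall at 13 months, while Lamp1, Mcoln1 and Ctsd carry the same letters and were not called in any comparison.

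Some values could include reads of neighbours. Of the 47 members 17 share exon bases with another annotated gene, and 8 share more than 10%: Arsb (39.9%), Ctsd (34.4%), Ctsl (26.8%), Sgsh (21.6%), Arsa (18.8%), Ctsa (17.4%), Ctsb (12.8%) and Hexa (12.8%). For Ctsd the partner, Gm49369, lies on the same strand and is listed at 0 in each library. For Ctsa a partner on the opposite strand, Pltp, had a mean of 54805 normalised counts, beside 51926.3 for Ctsa itself. Of the partners of Arsb, Gm26527 is listed at 0 in each library and Gm47210 has no listed value. Of the 12 members called at 13 months, 11 share no exon base with another gene, and Glb1 shares 5.5% with Tmppe.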

How the data were processed

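RNA from microglia-enriched brain homogenate of 19 mice was sequenced, with libraries from the NEBNext Ultra II RNA kit (labels' protocols). The tools named are Trimmomatic, HISAT2, featureCounts and DESeq2, and the build is mm10, per the submitters' processing notes. Versions, annotation and strand setting are not given in the sources used here. The unit of the deposited values is a signal: counts of reads in genes after the authors' division by a size factor of each library. This was read from the values, since 100% were whole multiples of their library's step at a tolerance of 0.01. Each of the 19 libraries was used. No protocol names cultures or shared litters, and each library is 1 mouse.

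Symbols, positions and exon lengths came from GENCODE M21. Genes that reached a value of 10 in 3 or more libraries were tested (23973, all 47 members among them). The test was limma-trend with robust variances on log2(value + 1), run in limma 3.58.1 under R 4.3.3, with 4 group means, two-sided p-values and Benjamini-Hochberg adjustment over all genes tested. Adjusted p-values are from this test unless another tool is named. The log2 scale with its pseudocount of 1 slightly understates changes of low genes. On recovered reads, edgeR 4.0.16, DESeq2 1.42.0 and voom were alternatives. Others were scaling, pseudocounts, filters, marker covariates, the replicate block and each library left out. The limma step was tested on simulated data.

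The members and lists were chosen with earlier results of these data known. Named in full were the called members, at most 8 per comparison and direction in the order of p. Comparisons without a call name the first 2 members by p on either side of 0. The rule adds the leading gene of each role by level per length and up to 3 called genes of each other list, direction and comparison. Other genes and values were picked after they were seen.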

Additional observations from a re-analysis of the deposited data

Results flagged for a closer look

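In 57 groups of 4 to 8 libraries of the members named in full, 2 values stood far from the rest of their group, where chance flags about 1 in 20 groups. Cd63 in HEM at 3 months was low in replicate 3, at 23199.4 normalised counts against 29517.9 in the next library, a gap of 0.98 of the group's range. This library was also the second farthest out on the first principal component, at -59.3. Arsa in WT at 13 months was low in replicate 8, at 4594.2 normalised counts against 4979.9 in the next library, a gap of 0.93 of the range.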

How the results depend on the processing

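The 12 members lower in HEM at 13 months numbered 9 to 14 under 13 of the 17 alternatives other than leaving out a library, and 0 with the replicate block, with the covariate for neutrophil and erythroid markers, and with those for choroid plexus and dissociation genes; these last 2 covariates were chosen after seeing the data. Each of these 4 fits also called 0 of all genes tested. The microglia covariate also called 1 higher, Cln3, which makes 15 calls. Leaving out 1 library gave 4 to 14. The 6 lower with age in HEM became 14 with DESeq2, 19 with voom, 12 with the microglia covariate, 1 with only the groups compared, and 0 with the block and with the neutrophil and erythroid, choroid plexus and dissociation covariates (0 to 8 with 1 library left out). The 1 higher with age in WT became 2 with DESeq2 and voom, and 0 with edgeR (TMM or RLE), a pseudocount of 10, no filter, only the groups compared, the block, those 3 covariates and without the 3 doubted libraries (0 to 1 with 1 left out). The difference of genotype effects went from 0 to 7 with DESeq2 and 6 with voom (0 to 2 with 1 library left out). Among the members named in full, signs turned only for Arsb at 3 months (0.13 with the neural covariate, and -0.90 to 0.15 with 1 library left out, the last without WT replicate 5), and in the difference for Arsb (-0.03 with the neural and -0.47 with the dissociation covariate, -0.15 to 0.91 with 1 left out) and Idua (-0.02 with the block, -0.06 and -0.05 with the choroid plexus and dissociation covariates). The cause of these shifts was not tested.

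Pairing by replicate number was not shown: HEM and WT share only 2 numbers at either age, too few for a decision from the correlations. Same-numbered libraries deviated together with correlations of 0.107 and 0.126 at 13 months, 0.0211 and -0.0381 at 3 months and -0.0675 to 0.173 with age in HEM. With the number as a block 0 members were called in each comparison, and the median at 13 months was -0.25.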
